A study of Mus musculus with 7 samples.

Results

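The collagen genes were taken here as every mouse gene whose symbol is Col followed by a number, the letter a and a second number. In all, 44 of the 29686 genes with an exon in the data met this rule, and the rule used no measured value. By the supramolecular structure of the protein, 11 encode fibrillar chains, 6 encode the type IV chains of basement membranes and 27 encode other types. These 27 comprise 9 fibril-associated collagens (FACIT), 6 beaded filament chains of type VI, 4 transmembrane collagens, 3 short chain network collagens, 2 multiplexins, the anchoring fibril chain Col7a1 and 2 chains outside these groups.

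Poly(A) RNA was sequenced before, during and after the conversion of mouse embryonic fibroblasts (MEF) to neural stem cells (NSC) with the transcription factors Oct4, Sox2, Klf4 and Myc (OSKM). The first library came from MEF of strain A12, which carry 1 floxed and 1 deleted allele of Mbd3 (Mbd3 flox/-). The day 6 library came from Nanog-CreER reporter MEF of B6/129 background with Rosa26-TdTomato and Col1a-OSKM transgenes, treated with doxycycline (Dox) and 4-hydroxytamoxifen (4OHT) and sorted as tdTomato positive at the end of day 6. The neural stem cells made with OSKM, with or without the Tomato label that Nanog-CreER switches on (Tomato-positive NSC and Tomato-negative NSC), had the same background and transgenes, were subcloned mechanically and are described as grown without MEF feeders, as is the day 6 sample. The transgene name places the OSKM cassette at the Col1a locus in these 3 libraries, and any effect of it on Col1a1 cannot be told apart from the cell type. Brain NSC were taken from BDF2 embryos, given as E12.5 in the sample description and E13.5 in the growth protocol, and grown on poly-D-lysine and laminin with bFGF and EGF. The induced pluripotent stem cells (iPSC) were of strain A12 (Mbd3 flox/-) and the embryonic stem cells (ESC) were of line v6.5. The ESC are described as grown with MEF feeders, and the same words stand in the iPSC record followed by question marks. Each group had 1 library, so differences carry no replicate error and no test, and strain, culture and clone cannot be told apart from the cell type.

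Collagens are extracellular matrix proteins in which 3 chains wind around each other, and a glycine in every Gly-X-Y repeat lets the helix close. Fibrillar chains form the tensile fibres of connective tissue, type IV chains form the sheet of basement membranes, and fibril-associated and beaded chains link these to cells and other matrix. Fibroblasts are the main makers of fibrillar collagen, while in the developing brain collagen is found mostly in basement membranes of the vessels and the pial surface.

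The repeat is visible in the exons that the measurements were made on. Exons of 54 bases made up 22.0% of the 2127 collagen exons, against 0.506% of all 270168 exons matched to the annotation, and 45.5% of the 668 fibrillar exons, against 3.92% of the type IV exons. A length divisible by 9 was found in 78.9% of fibrillar exons and in 13.1% of all exons. The exons below, 1 from each of the 5 fibrillar genes read, illustrate the repeat (GENCODE M21, GRCm38), with each glycine codon (GGN) in capitals at every ninth base. Each is the first measured 54-base exon of the longest transcript with such a codon at all 6 positions. The count of 6 in each exon thus follows from the choice.
Col1a1 exon 8, chr11:94939904-94939957, plus strand: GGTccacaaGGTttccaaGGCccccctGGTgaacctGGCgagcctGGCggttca
Col1a2 exon 8, chr6:4515481-4515534, plus strand: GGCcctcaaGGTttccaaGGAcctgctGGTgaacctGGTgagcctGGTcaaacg
Col2a1 exon 6, chr15:97998545-97998598, minus strand: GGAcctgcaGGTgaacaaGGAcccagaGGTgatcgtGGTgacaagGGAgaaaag
Col3a1 exon 6, chr1:45325360-45325413, plus strand: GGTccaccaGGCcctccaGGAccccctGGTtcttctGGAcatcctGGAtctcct
Col5a2 exon 6, chr1:45434892-45434945, minus strand: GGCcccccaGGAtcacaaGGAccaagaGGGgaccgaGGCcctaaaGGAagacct
The Col1a1 exon had 13654.3 RPKM (reads per kilobase of exon per megaread) in MEF, 8.45 on day 6, 194 in Tomato-positive NSC, 19.0 in Tomato-negative NSC, 1.37 in brain NSC, with 16.9 in iPSC and 142 in ESC. The Col2a1 exon had 437 RPKM in Tomato-positive NSC, 7.94 in Tomato-negative NSC and 132 in MEF. Single exons did not always keep the order of the gene levels given below, where a gene's RPKM is the mean over its exons weighted by exon length. The Col1a1 exon was lower on day 6 than in Tomato-negative NSC and lower in ESC than in Tomato-positive NSC, the opposite of the gene levels, and the Col2a1 exon had 4.03 RPKM on day 6, 0.639 in iPSC and 0 in ESC.

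The depth read from the steps of the values was 19 megareads (M) in Tomato-positive NSC and 27 to 58 M in the others. All 14 fibroblast and mesenchymal markers reached 2 RPKM in MEF, which was the highest library for each of them but Mmp3 (highest in ESC). The summed level of the 9 neural stem cell markers was 5102 to 10550.5 RPKM in the 3 NSC libraries, against 83.3 to 286 RPKM in the other 4, although Sox2, which pluripotent cells also express, was highest in iPSC. The 8 pluripotency markers summed to 1095.02 RPKM on day 6, 7147 in iPSC and 9092 in ESC, against 4.71 to 11.5 RPKM elsewhere. Most of the day 6 sum was Pou5f1 (886 RPKM), which encodes Oct4, 1 of the OSKM factors. Reads of the transgene and of the gene itself were not told apart here. The MEF library also held myeloid markers (3055 RPKM over 6 genes, against 8.85 to 166 elsewhere) and skeletal muscle markers (392 RPKM over 6 genes, against 1.82 to 20.7 elsewhere). On day 6 a single gene model, Gm42418, took 9.73% of the summed gene RPKM, against 0.0260% to 0.0878% in the other libraries.

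MEF stood far above every other population in total collagen. The 44 genes summed to 32713.2 RPKM in MEF and 224 on day 6, 3389 in Tomato-positive NSC, 443 in Tomato-negative NSC, 270 in brain NSC, with 258 in iPSC and 3184 in ESC. Collagens thus took 2.001% of the summed gene RPKM in MEF, 0.188% in Tomato-positive NSC and 0.163% in ESC, and 0.0142% to 0.0332% in the remaining 4 libraries. The libraries fell into 3 tiers: MEF alone, then Tomato-positive NSC and ESC, and then the other 4, with sums of 224 to 443 RPKM. In bulk RNA, fewer collagen-making cells and less collagen RNA per cell cannot be told apart.

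**Figure D1:**
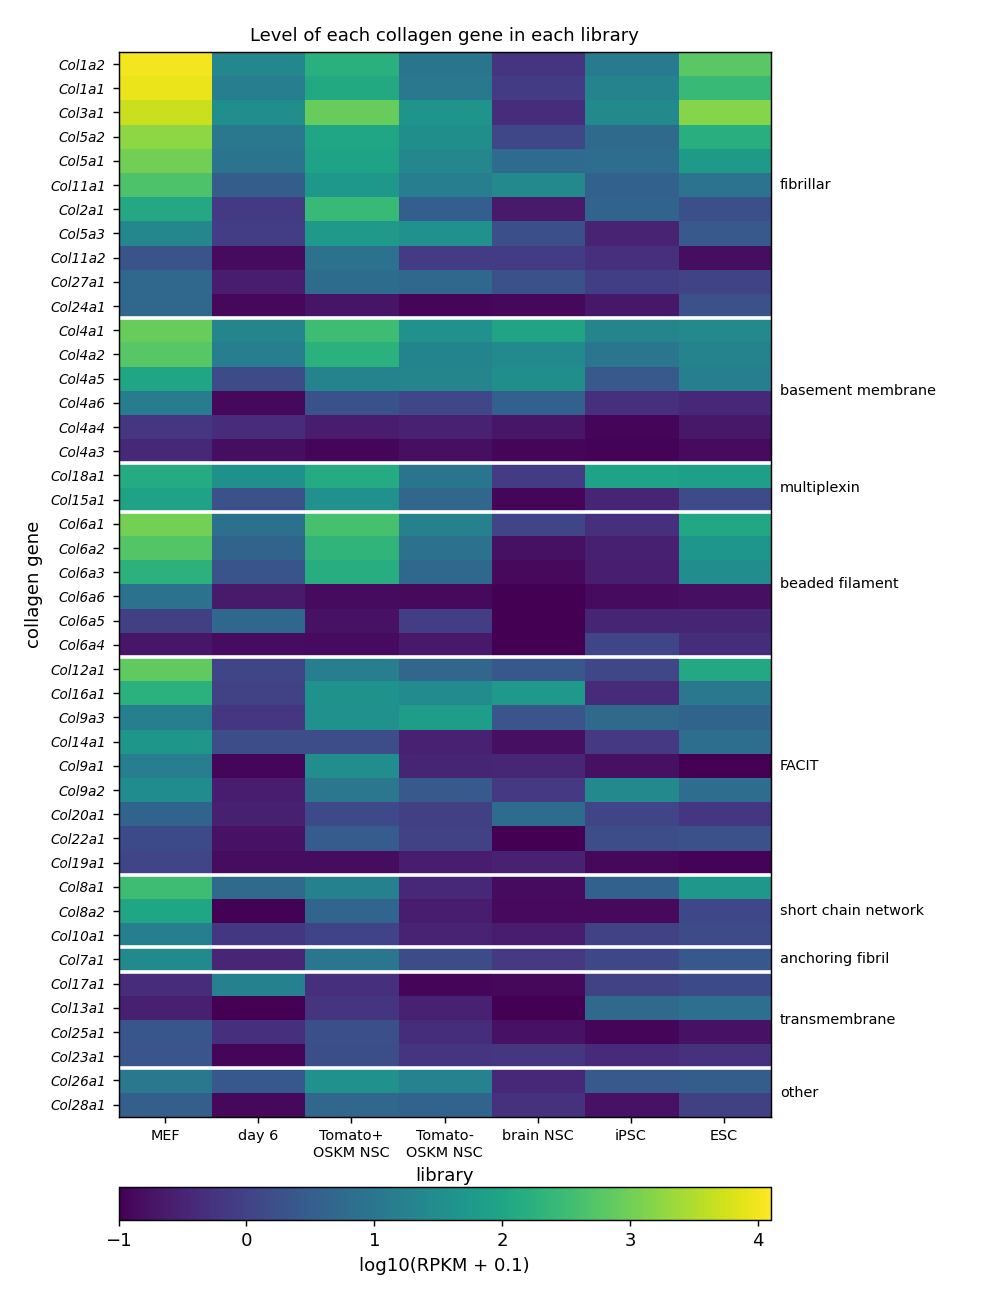
Level of all 44 collagen genes (rows, grouped by class and ordered by their highest level) in the 7 libraries (columns), as log10(RPKM + 0.1) in colour. The MEF column is the brightest in most classes, Tomato-positive NSC and ESC share bright fibrillar and type VI rows, and Col17a1 is brightest on day 6.

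Of the 44 genes, 40 reached 2 RPKM in at least 1 library, 26 reached 20 RPKM and 18 did not. The number at 2 RPKM or more was 36 in MEF, 16 on day 6, 29 in Tomato-positive NSC, 23 in Tomato-negative NSC, 10 in brain NSC, with 16 in iPSC and 23 in ESC. Levels of 100 RPKM or more were held by 18 genes in MEF, 11 in Tomato-positive NSC and 6 in ESC, and by 0 in the other 4 libraries. MEF was the highest library for 30 genes and Tomato-positive NSC for 8. The other 6 peaked elsewhere: Col17a1 and Col6a5 on day 6, Col9a3 in Tomato-negative NSC, Col20a1 in brain NSC, Col6a4 in iPSC and Col13a1 in ESC.

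The kinds of collagen differed along with the amount. Fibrillar genes made up 84.4% of the collagen sum in MEF, 43.5% on day 6, 49.8% in Tomato-positive NSC, 41.3% in Tomato-negative NSC, 14.2% in brain NSC, with 31.4% in iPSC and 82.5% in ESC. Type IV genes made up 58.4% in brain NSC, 13.2% to 18.2% on day 6, in both converted libraries and in iPSC, and 1.91% in ESC and 4.71% in MEF. Type VI chains had their largest share, 23.1%, in Tomato-positive NSC. The 2 multiplexins took 17.2% on day 6 and 34.7% in iPSC, and the FACIT genes took 24.4% in Tomato-negative NSC and 25.9% in brain NSC. The most abundant gene was Col1a2 in MEF, Col18a1 on day 6 and in iPSC, Col3a1 in Tomato-positive NSC and in ESC, Col9a3 in Tomato-negative NSC and Col4a1 in brain NSC.

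**Figure D2:**
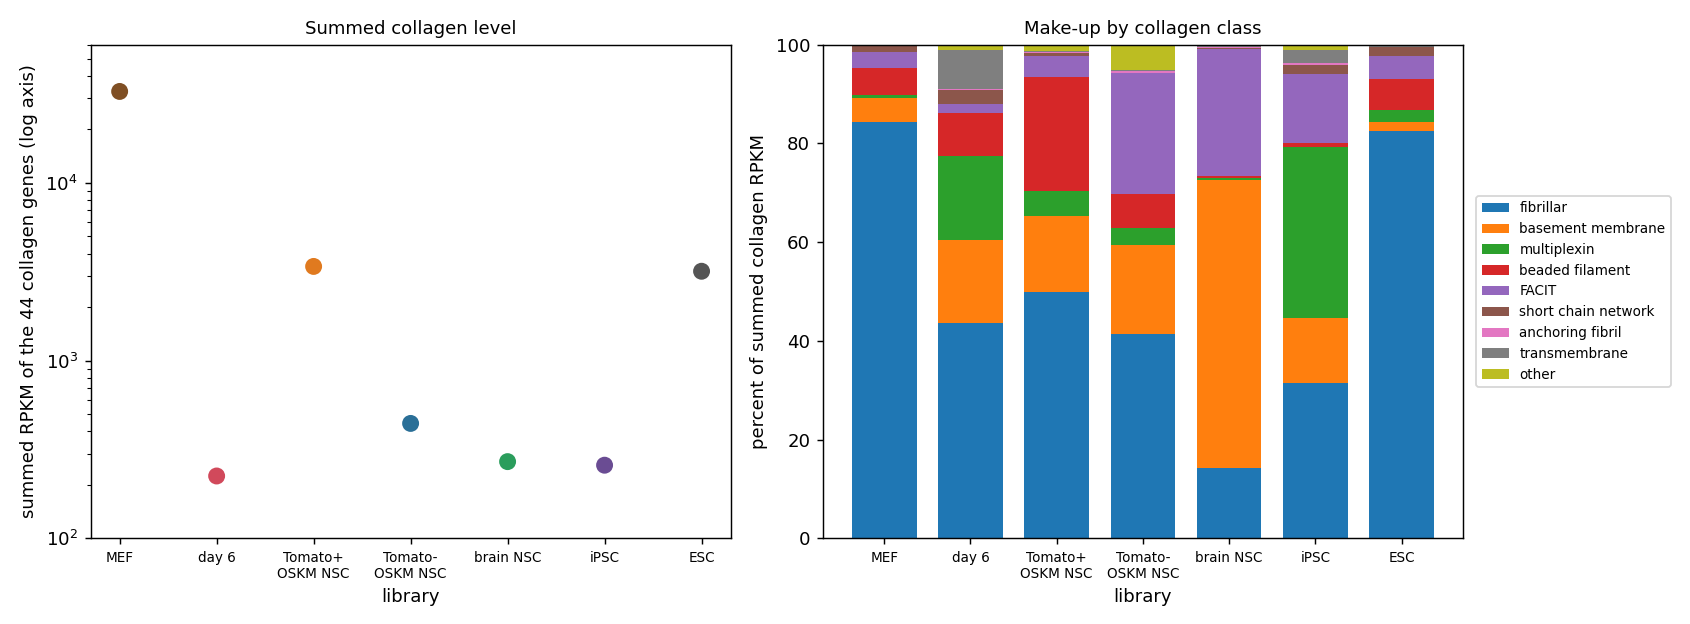
Left, summed RPKM of the 44 collagen genes in each library on a log axis. Right, percent of that sum held by each of the 9 collagen classes; fibrillar genes fill 82.5% in ESC and 84.4% in MEF, and type IV genes fill 58.4% in brain NSC.

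Among the fibrillar genes, Col1a1 (ENSMUSG00000001506, chr11:94936224-94953042), the main chain of type I collagen, had 9085 RPKM in MEF and 15.0 on day 6, 123 in Tomato-positive NSC, 10.7 in Tomato-negative NSC, 0.700 in brain NSC, with 19.0004 in iPSC and 291 in ESC. Its partner chain Col1a2 (ENSMUSG00000029661, chr6:4504814-4541544) had 10202 RPKM in MEF and 22.4 on day 6, 171 in Tomato-positive NSC, 9.37 in Tomato-negative NSC, 0.482 in brain NSC, with 12.9 in iPSC and 614 in ESC. Col3a1 (ENSMUSG00000026043, chr1:45311538-45349706), the chain of type III collagen of soft connective tissue, had 4949 RPKM in MEF and 35.2 on day 6, 810 in Tomato-positive NSC, 43.7 in Tomato-negative NSC, 0.366 in brain NSC, with 26.9 in iPSC and 1477 in ESC. All 3 were highest in MEF and lowest in brain NSC, with ESC and then Tomato-positive NSC next below MEF. The balance between them differed: Col3a1 stood at 0.545 times Col1a1 per length in MEF, at 6.61 times in Tomato-positive NSC and at 5.07 times in ESC. Col1a1 over Col1a2 was nearer to even, at 0.891 in MEF, 0.717 in Tomato-positive NSC and 0.474 in ESC, and such ratios between genes also depend on their exon lengths.

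Type V chains, which start and thin type I fibrils, were likewise highest in MEF and lowest in brain NSC for Col5a1 and Col5a2. Col5a1 had 1053 RPKM in MEF and 9.24 on day 6, 90.9 in Tomato-positive NSC, 22.8 in Tomato-negative NSC, 5.98 in brain NSC, with 7.02 in iPSC and 59.6 in ESC. Col5a2 had 1688 RPKM in MEF and 11.1 on day 6, 100.4 in Tomato-positive NSC, 34.0 in Tomato-negative NSC, 1.12 in brain NSC, with 5.67 in iPSC and 168 in ESC. Col5a3, the remaining type V chain, departed from them and was highest in the converted cells. It had 22.4 RPKM in MEF and 0.739 on day 6, 58.1 in Tomato-positive NSC, 38.5 in Tomato-negative NSC, 1.68 in brain NSC, with 0.211 in iPSC and 2.61 in ESC.

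The cartilage fibril genes split in a similar way. Col2a1 (ENSMUSG00000022483, chr15:97975602-98004695), the type II chain best known from cartilage, had 119 RPKM in MEF and 0.631 on day 6, 268 in Tomato-positive NSC, 3.27 in Tomato-negative NSC, 0.136 in brain NSC, with 4.22 in iPSC and 1.68 in ESC. Col11a1, which joins type II and type V fibrils, had 477 RPKM in MEF and 3.13 on day 6, 51.9 in Tomato-positive NSC, 15.0 in Tomato-negative NSC, 25.5 in brain NSC, with 3.76 in iPSC and 8.75 in ESC. Col11a1 was the most abundant fibrillar gene of brain NSC. The cartilage markers other than collagens stayed low beside Col2a1: the 8 genes summed to 10.1 RPKM in Tomato-positive NSC and 1.97 in Tomato-negative NSC, against 15.3 in MEF, and Acan, the cartilage proteoglycan, had 3.29 RPKM in Tomato-positive NSC. Exon 2 of Col2a1, which mature chondrocytes splice out, had 61.4 RPKM in Tomato-positive NSC and 37.6 in MEF. Exon 1 was lower, at 18.2 RPKM in Tomato-positive NSC and 12.1 in MEF, and the median exon of the gene was higher, at 295 RPKM in Tomato-positive NSC and 128 in MEF. The remaining fibrillar genes Col11a2, Col24a1 and Col27a1 did not exceed 8.03 RPKM in any library.

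Type IV genes led the collagens of brain NSC. Col4a1 (ENSMUSG00000031502, chr8:11198423-11312826), which with Col4a2 forms the common basement membrane network, had 822 RPKM in MEF and 20.9 on day 6, 323 in Tomato-positive NSC, 38.5 in Tomato-negative NSC, 93.3 in brain NSC, with 21.1 in iPSC and 24.8 in ESC. Col4a2 had 601 RPKM in MEF and 15.0 on day 6, 178 in Tomato-positive NSC, 19.9 in Tomato-negative NSC, 26.2 in brain NSC, with 10.1 in iPSC and 19.4 in ESC. The 2 genes lie head to head and share an exon end, and counting by strand is not stated, so reads of that end cannot be told apart. Col4a5, a chain of specialised basement membranes, had 101 RPKM in MEF and 1.45 on day 6, 18.9 in Tomato-positive NSC, 20.8 in Tomato-negative NSC, 34.6 in brain NSC, with 2.56 in iPSC and 16.2 in ESC. Col4a1, Col4a2 and Col4a5 were thus above 26 RPKM in brain NSC, where Col1a1, Col1a2 and Col3a1 were all under 1 RPKM. Col4a6 reached 3.65 RPKM in brain NSC and 14.6 in MEF, and Col4a3 and Col4a4, the chains of the mature kidney filter, stayed under 0.6 RPKM in all 7 libraries.

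The multiplexins, basement membrane zone collagens that carry sugar chains, differed from each other in pluripotent cells. Col18a1, the source of the fragment endostatin, had 139 RPKM in MEF and 36.8 on day 6, 138 in Tomato-positive NSC, 9.72 in Tomato-negative NSC, 0.724 in brain NSC, with 89.4 in iPSC and 76.4 in ESC. Its relative Col15a1 had 84.8 RPKM in MEF and 1.71 on day 6, 37.3 in Tomato-positive NSC, 4.67 in Tomato-negative NSC, 0.0255 in brain NSC, with 0.230 in iPSC and 1.43 in ESC. Col18a1 was within 4-fold of MEF in day 6 cells and in both pluripotent lines, where Col15a1 was not. Of the annotated first exons of Col18a1, the upstream one had 37.2 RPKM in MEF, 37.8 in Tomato-positive NSC, 45.9 in iPSC and 5.54 in ESC. The downstream first exon had 12.9 RPKM in MEF, 11.3 in Tomato-positive NSC, 8.15 in iPSC and 6.66 in ESC. The second exon of the upstream form had 124 RPKM in iPSC and 54.6 in ESC, and an exon common to both forms had 77.8 RPKM in iPSC and 83.0 in ESC. The gap between iPSC and ESC thus differed from exon to exon, and the Col18a1 exons of ESC were uneven relative to MEF, with log2 ratios from -2.75 to 0.46.

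The 3 main type VI chains, which assemble into beaded filaments around cells, were highest in MEF, then in Tomato-positive NSC and then in ESC. Col6a1 (ENSMUSG00000001119, chr10:76708792-76726168) had 1080 RPKM in MEF and 7.57 on day 6, 415 in Tomato-positive NSC, 16.5 in Tomato-negative NSC, 1.04 in brain NSC, with 0.395 in iPSC and 116 in ESC. Col6a2 had 544 RPKM in MEF and 4.31 on day 6, 216 in Tomato-positive NSC, 8.25 in Tomato-negative NSC, 0.0670 in brain NSC, with 0.184 in iPSC and 48.1 in ESC. Col6a3 had 187 RPKM in MEF and 2.02 on day 6, 152 in Tomato-positive NSC, 5.23 in Tomato-negative NSC, 0.0323 in brain NSC, with 0.170 in iPSC and 31.6 in ESC. Col6a1 over Col6a2 stayed between 1.76 and 2.42 in 6 of 7 libraries, and was 15.5 in brain NSC, where Col6a2 was close to 0. Col6a6 reached 7.71 RPKM in MEF, Col6a5 reached 5.10 on day 6 against 0.815 in MEF, and Col6a4 did not exceed 1.05 RPKM. These 3 had no read in brain NSC, where 3 reads would equal 0.0138 to 0.0151 RPKM.

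The fibril-associated genes did not share 1 pattern. Col12a1, which coats type I fibrils, had 724 RPKM in MEF and 1.04 on day 6, 15.1 in Tomato-positive NSC, 4.71 in Tomato-negative NSC, 2.28 in brain NSC, with 1.09 in iPSC and 121 in ESC. Col14a1, which does the same in skin and tendon, had 49.4 RPKM in MEF and 1.48 on day 6, 1.54 in Tomato-positive NSC, 0.200 in Tomato-negative NSC, 0.0622 in brain NSC, with 0.615 in iPSC and 6.93 in ESC. Col16a1 was among the 6 highest collagens in Tomato-negative NSC and in brain NSC, but not in Tomato-positive NSC. It had 182 RPKM in MEF and 0.928 on day 6, 39.8 in Tomato-positive NSC, 29.0 in Tomato-negative NSC, 58.2 in brain NSC, with 0.318 in iPSC and 11.0 in ESC. In the brain NSC library Col16a1 was second only to Col4a1 among collagens.

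The 3 chains of type IX collagen, which sits on type II fibrils, were not matched in level. Col9a3 had 15.6 RPKM in MEF and 0.545 on day 6, 37.4 in Tomato-positive NSC, 69.8 in Tomato-negative NSC, 2.15 in brain NSC, with 5.74 in iPSC and 4.34 in ESC. Col9a2 had 29.5 RPKM in MEF and 0.149 on day 6, 10.7 in Tomato-positive NSC, 2.54 in Tomato-negative NSC, 0.608 in brain NSC, with 25.3 in iPSC and 6.54 in ESC. Col9a1 (ENSMUSG00000026147, chr1:24177610-24252684) had 14.8 RPKM in MEF and 0.0212 on day 6, 32.0 in Tomato-positive NSC, 0.238 in Tomato-negative NSC, 0.253 in brain NSC and 0.0714 in iPSC, and no read in ESC, where 3 reads would equal 0.0178 RPKM. Col9a3 over Col9a1 was near 1 in MEF (1.05) and in Tomato-positive NSC (1.17), and 294 in Tomato-negative NSC. Of the remaining FACIT genes, Col20a1 was highest in brain NSC with 6.22 RPKM against 4.24 in MEF, Col22a1 reached 2.88 RPKM in Tomato-positive NSC, and Col19a1 reached 1.06 RPKM in MEF.

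Col9a1 has 2 annotated starts, and the exons allowed them to be told apart. The second start gives a shorter chain known from the eye, and the first is the one used in cartilage. The 200 bases that lie 250 to 51 bases before each RefSeq start (GRCm38.p6, plus strand) are shown because the reads separated these 2 starts.
First start, chr1:24177360-24177559: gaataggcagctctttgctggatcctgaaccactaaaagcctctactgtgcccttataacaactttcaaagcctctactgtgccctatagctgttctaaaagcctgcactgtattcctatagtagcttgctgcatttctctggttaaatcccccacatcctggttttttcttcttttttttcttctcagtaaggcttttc
Second start, chr1:24194953-24195152: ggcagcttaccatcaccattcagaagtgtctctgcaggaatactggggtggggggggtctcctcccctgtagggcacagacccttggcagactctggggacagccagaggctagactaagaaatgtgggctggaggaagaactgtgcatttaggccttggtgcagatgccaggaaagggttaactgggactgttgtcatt
Neither window holds the motif CCAAT, which 28.4% of the 32851 promoter windows of this length hold on either strand. They also lack the motif TATAAA, held by 9.14% of windows, and the motif spelled GGGCGG, held by 24.6%. Bases closer to each start than these windows were not searched, so whether a motif lies there is not shown. The 6 exons before the second start (1025 bases) had no read in Tomato-positive NSC and 23 reads in MEF, a mean of 0.499 RPKM. The 33 exons from the second start on (3080 bases) had 2496 reads and 42.7 RPKM in Tomato-positive NSC, and 2707 reads and 19.5 RPKM in MEF. The exon that opens at the second start had 12.0 RPKM in Tomato-positive NSC and 7.13 in MEF. In both libraries nearly all Col9a1 signal therefore lay downstream of the second start.

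**Figure D3:**
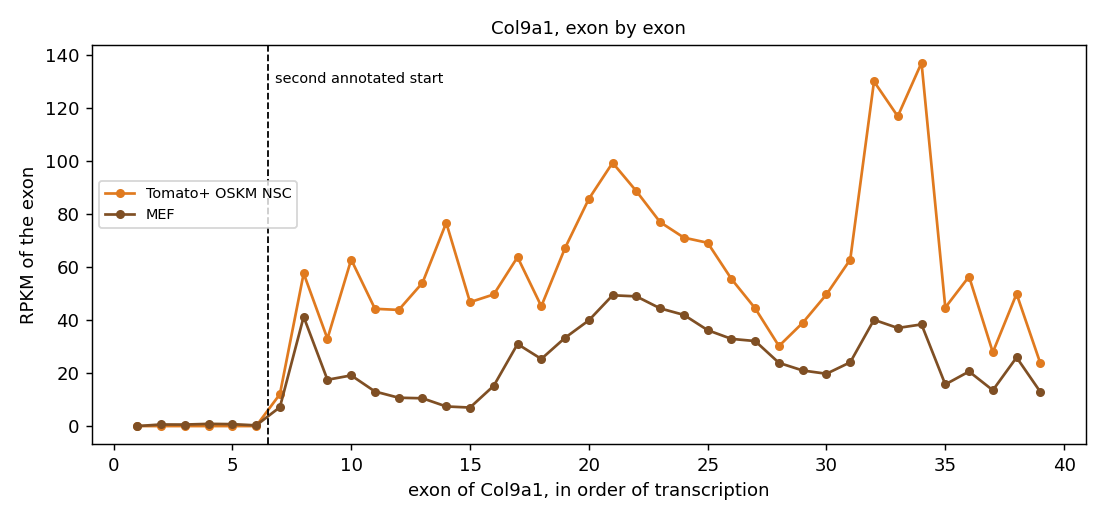
RPKM of each of the 39 exons of Col9a1 in order of transcription, in Tomato-positive NSC and in MEF, with the second annotated start as a dashed line. Exons 1 to 6 lie at or near 0 in both libraries, and the 33 exons after the line average 42.7 and 19.5 RPKM in these 2 libraries.

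Among the remaining classes, the short chain collagens, which form hexagonal lattices in the cornea and vessel walls, were highest in MEF. Col8a1 had 334 RPKM in MEF and 5.78 on day 6, 17.3 in Tomato-positive NSC, 0.275 in Tomato-negative NSC, 0.0435 in brain NSC, with 3.65 in iPSC and 53.1 in ESC. Col8a2 had 105 RPKM in MEF and 0.00930 on day 6, 4.46 in Tomato-positive NSC, 0.148 in Tomato-negative NSC, 0.0317 in brain NSC, with 0.0332 in iPSC and 1.16 in ESC. Col10a1, known from hypertrophic cartilage, had 16.1 RPKM in MEF and at most 1.46 RPKM elsewhere. Col7a1, which anchors the epidermis to the dermis, had 26.4 RPKM in MEF and 0.258 on day 6, 9.97 in Tomato-positive NSC, 1.35 in Tomato-negative NSC, 0.619 in brain NSC, with 1.15 in iPSC and 2.38 in ESC.

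Col26a1, a short collagen outside the main classes, was highest in the converted neural cells. It had 11.0 RPKM in MEF and 2.47 on day 6, 38.7 in Tomato-positive NSC, 18.5 in Tomato-negative NSC, 0.270 in brain NSC, with 2.54 in iPSC and 3.14 in ESC. Col17a1, a hemidesmosome protein of basal keratinocytes, had 0.338 RPKM in MEF and 17.2 on day 6, 0.405 in Tomato-positive NSC, 0.0170 in Tomato-negative NSC, 0.0265 in brain NSC, with 0.932 in iPSC and 1.31 in ESC. Day 6 stood 50.98-fold above MEF for Col17a1, with a 95% counting interval of the read ratio from 41.1 to 64.0 that covers counting error only. The 6 epidermal markers moved with it, summing to 637 RPKM on day 6, against 42.5 in MEF and 0.415 to 125 in the other 5 libraries, with Krt14 at 391 RPKM and Itgb4 at 174 RPKM on day 6. Trp63, which defines basal epidermal cells, was at 0.164 RPKM on day 6, and the part of such cells in the Col17a1 level was not tested. Col13a1, a transmembrane collagen of cell contacts, was the 1 gene highest in ESC, with 5.82 RPKM in iPSC beside 7.21 RPKM in ESC, against 0 to 0.520 RPKM in the other 5 libraries. Col28a1 reached 4.77 RPKM in Tomato-positive NSC, Col25a1 2.21 RPKM in MEF and Col23a1 2.11 RPKM in MEF.

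For each pair of libraries the log2 ratio was taken after adding 1 RPKM to either side. A gene entered where it had 2 RPKM or more in at least 1 library of the pair and was counted at 4-fold or more. Several comparisons share a library, so their counts are not independent. At day 6 against MEF, 38 collagen genes entered and 31 were counted lower, against 16.1% of all 16154 genes that entered, while 1 was counted higher, against 8.23% of all genes. The median collagen log2 ratio was -4.59, against -0.13 over all genes. All 4 type IV genes that entered and 10 of 11 fibrillar genes were lower, with Col1a1 at -9.15, Col1a2 at -8.77, Col12a1 at -8.47 and Col3a1 at -7.10. The other fibrillar gene, Col11a2, had 2.05 RPKM in MEF and 0.0379 on day 6. With 1 RPKM added, a MEF level this low cannot give a 4-fold lower ratio. The same holds for Col23a1 and Col25a1. The gene counted higher was Col17a1, at 3.77, and Col18a1, at -1.89, was among the 6 in between. The fibroblast markers moved the same way, with 8 of 14 at 2 RPKM or more and a sum of 138 RPKM on day 6, against 14 of 14 and 12838.9 RPKM in MEF, and Cnn1 had no read on day 6. Their part in the collagen difference was not tested.

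The Tomato-positive and Tomato-negative libraries of converted neural cells differed from day 6 in unlike ways. The day 6 cells had been sorted as tdTomato positive, so Tomato-negative NSC stand beside a differently labelled population. The Tomato-negative comparison with day 6 is therefore not a course over time. In Tomato-positive NSC against day 6, 26 of 31 collagen genes were higher, against 12.9% of all genes, and 2 were lower, against 6.00%. The median ratio was 3.17, against 0.50 over all genes, and Col2a1 (7.37), Col6a3 (5.66), Col6a1 (5.60) and Col6a2 (5.35) led. The 2 lower genes were Col17a1 (-3.70) and Col6a5 (-2.50). In Tomato-negative NSC against day 6, 7 of 26 were higher, against 12.7% of all genes, and 2 were lower, against 8.40%. The higher ones were Col9a3 (5.52), Col5a3 (4.51), Col16a1 (3.96), Col4a5 (3.15), Col26a1 (2.49), Col27a1 (2.42) and Col28a1 (2.36). With the highest exon of each gene in place of the mean, this comparison gave 6 higher and 6 lower. By the mean, Col1a1 (-0.45), Col1a2 (-1.18), Col3a1 (0.30), Col4a1 (0.85) and Col6a1 (1.03) were all inside 4-fold. Of all genes counted in the Tomato-positive comparison 68.3% were higher, or 52.5% with median-of-ratios scaling.

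The converted neural cells with the Tomato label stood above those without it in collagen level. In Tomato-positive against Tomato-negative NSC, 16 of 29 collagen genes were higher, against 2.77% of all genes, and 0 were lower, against 0.881%. The median was 2.25, against 0.19 over all genes. Col2a1 led at 5.98, with 268 RPKM in Tomato-positive cells and 3.27 in Tomato-negative cells. Col9a1 followed at 4.74, with 32.0 and 0.238 RPKM in these libraries. Without the added 1 RPKM, Col2a1 differed by 81.9-fold and Col9a1 by more, so their order depends on this addition. All 3 type VI genes that entered were higher, by 4.62 for Col6a3, 4.57 for Col6a1 and 4.55 for Col6a2, as were Col3a1 (4.18), Col1a2 (4.05), Col1a1 (3.40), Col18a1 (3.70), Col4a2 (3.10) and Col4a1 (3.04). The 13 genes between the limits included Col5a1 (1.95), Col5a2 (1.54), Col5a3 (0.58), Col16a1 (0.44), Col4a5 (-0.13) and Col9a3 (-0.88), the last of these being higher in the Tomato-negative library. Fibroblast markers summed to 705 RPKM in Tomato-positive NSC, with 13 of 14 at 2 RPKM or more and 0 without a read, and to 115 RPKM in Tomato-negative NSC, with 8 of 14 and 0 without a read. S100a4 (269 and 9.46 RPKM), Mmp2 (178 and 33.8 RPKM) and Thy1 (89.3 and 15.0 RPKM) were the highest of them in the Tomato-positive library, with the Tomato-negative value second in each pair. The 6 epidermal markers also differed, summing to 125 RPKM in Tomato-positive NSC and 3.05 in Tomato-negative NSC, with 3 of the 3 that entered higher and Krt5 at 75.8 RPKM in Tomato-positive NSC and without a read in Tomato-negative NSC. The 7 endothelial markers summed to 21.9 RPKM in Tomato-positive NSC and 3.30 in Tomato-negative NSC, with 2 of 3 higher. The higher ones were Emcn and Cdh5, while Kdr was inside 4-fold. Pecam1, Tek, Tie1 and Vwf stayed under 2 RPKM in both libraries, so the list did not rise as a whole. The part of fibroblast, epidermal or endothelial cells in these collagen levels was not tested. Other marker lists went the other way. The median was -0.85 for the 9 neural stem cell markers and -0.92 for the 2 pericyte markers that entered, with 0 past 4-fold. Of all genes counted 75.9% were higher, or 54.7% when totals were made equal, and the collagen counts kept 0 lower under both scalings.

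**Figure D4:**
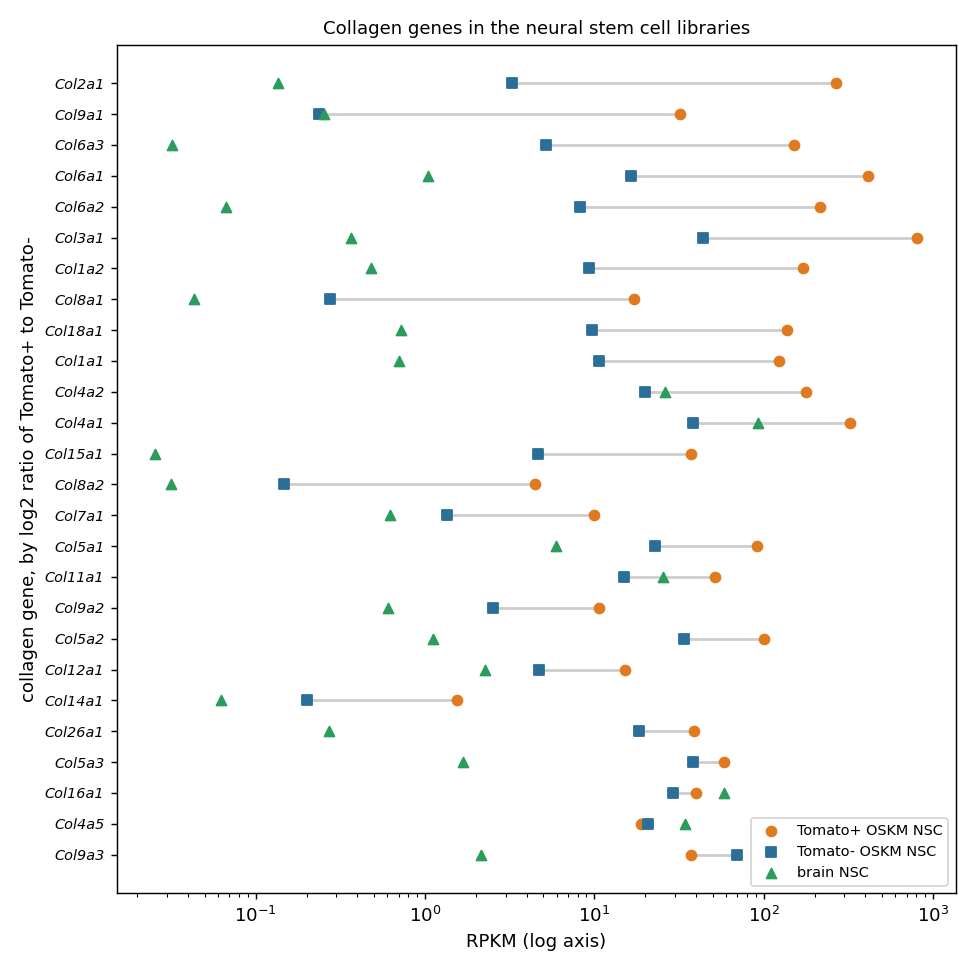
RPKM on a log axis of the 26 collagen genes that reached 20 RPKM in any library, in Tomato-positive NSC, Tomato-negative NSC and brain NSC, ordered by the log2 ratio of the 2 converted libraries. The grey lines join these 2; they are longest for Col2a1 and Col9a1 at the top and shortest for Col4a5 near the foot, where brain NSC is the highest of the 3.

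Both converted libraries stood above brain NSC in collagen, the Tomato-positive one in more genes. In Tomato-positive NSC against brain NSC, 23 of 31 collagen genes were higher, against 6.99% of all genes, and 0 were lower, against 2.97%. The median was 3.61, against 0.28 over all genes, with Col3a1 at 9.21, Col2a1 at 7.89, Col6a1 and Col6a2 at 7.67 and Col6a3 at 7.21. In Tomato-negative NSC against brain NSC, 12 of 25 were higher, against 3.10% of all genes, and 0 were lower, against 1.57%, with a median of 1.91 against 0.08 over all genes. Col3a1 (5.03), Col9a3 (4.49), Col5a2 (4.05), Col26a1 (3.94) and Col5a3 (3.88) led that set. Of the 4 type IV genes that entered, 1 (Col4a2, 2.72) was higher in Tomato-positive NSC, and 0 were counted in Tomato-negative NSC, where Col4a1 was at -1.25, Col4a6 at -1.12, Col4a5 at -0.71 and Col4a2 at -0.38. Of the FACIT genes, Col20a1 and Col16a1 lay below brain NSC in both libraries. Col20a1 was at -1.70 in Tomato-positive and -1.97 in Tomato-negative NSC, and Col16a1 was at -0.54 in Tomato-positive and -0.98 in Tomato-negative NSC, all inside 4-fold. Fibroblast markers summed to 40.4 RPKM in brain NSC, with 5 of 14 at 2 RPKM or more and Fap, Twist2 and Mmp3 without a read. The split of all genes in the Tomato-positive comparison was 70.1% higher, or 49.0% when totals were made equal, where collagens gave 21 higher and 1 lower.

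Against MEF, brain NSC had 27 of 36 collagen genes lower, against 13.3% of all genes, and 0 higher, against 7.24%, with a median of -4.13 against 0.14 over all genes. Col1a2 (-12.75), Col1a1 (-12.38) and Col3a1 (-11.82) were the lowest ratios, while Col4a5 (-1.52), Col4a6 (-1.74), Col16a1 (-1.63) and Col20a1 (0.46) were among the 9 inside 4-fold. Of all genes counted 35.3% were higher, or 45.3% when totals were made equal.

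The pluripotent lines differed from each other in collagen level, with ESC the higher. In iPSC against MEF, 27 of 37 collagen genes were lower, against 14.1% of all genes, and 1 was higher, against 10.4%, with a median of -4.52 against 0.12 over all genes. In ESC against MEF, 25 of 37 were lower, against 10.5% of all genes, and 1 was higher, against 11.5%, with a median of -2.70 against 0.25 over all genes. The gene counted higher in each was Col13a1, at 2.52 in iPSC and 2.79 in ESC. Compared directly, iPSC had 13 of 24 collagen genes lower than ESC, against 4.39% of all genes, and 0 higher, against 1.29%, with a median of -2.28 against -0.18 over all genes. Col6a1 (-6.39), Col12a1 (-5.86), Col3a1 (-5.73), Col1a2 (-5.46) and Col6a2 (-5.37) were farthest apart, while Col18a1 (0.22), Col4a1 (-0.23), Col13a1 (-0.27) and Col9a3 (0.34) were close. Fibroblast markers summed to 78.9 RPKM in iPSC, with 6 of 14 at 2 RPKM or more, and to 961 RPKM in ESC, with 12 of 14, and 0 were without a read in either. Mmp3 had 0.297 RPKM in iPSC and 297 in ESC, with 9.89 in MEF, and S100a4 had 0.972 in iPSC and 191 in ESC. Feeders are named in the ESC record, and the part of feeder RNA in the ESC collagen levels was not tested. Of all genes counted in iPSC against ESC 22.7% were higher, or 34.0% when totals were made equal, and in ESC against MEF 52.2% were higher, or 40.1% with median-of-ratios scaling.

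Day 6 cells differed from iPSC in 7 of 21 collagen genes, in both directions. Against iPSC, 4 were higher (19.0%), against 6.53% of all genes, and 3 were lower (14.3%), against 9.83%. The lower share was thus near that of all genes. The median was 0.35, against -0.23 over all genes. These counts became 1 higher and 1 lower with a pseudocount of 4 RPKM or a floor of 8 RPKM. With the highest exon of each gene they became 10 higher and 3 lower. By the mean, the higher ones were Col17a1 (3.24), Col6a1 (2.62), Col6a5 (2.30) and Col6a2 (2.16), and the lower ones Col9a2 (-4.52), Col13a1 (-2.77) and Col9a3 (-2.13). Col4a1 differed by -0.01 and Col3a1 by 0.37 between day 6 and iPSC. Against ESC, 14 of 25 were lower, against 12.6% of all genes, and 2, Col17a1 and Col6a5, were higher, against 4.60%, with a median of -2.63 against -0.40 over all genes.

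The genes that make, export, crosslink and bind collagen were read from 5 lists. At day 6 against MEF, where 16.1% of all genes were lower and 8.23% higher, 12 of 17 modification and folding genes were lower (median -2.84), with the prolyl hydroxylase subunits P4ha3 at -6.75, P4ha2 at -6.72 and P4ha1 at -4.52. In this comparison 11 of 15 export, processing and crosslinking genes were lower (median -2.98), with the crosslinking enzyme Lox at -8.35, while Pcolce2, an enhancer of procollagen cleavage, was higher, with 30.8 RPKM on day 6 and 1.67 in MEF. Of the receptors 6 of 7 were lower, and of the basement membrane partners 8 of 14 were lower and Lama1, a laminin chain of early embryos, was higher, with 21.2 RPKM on day 6 and 2.74 in MEF. All 12 fibril partners that entered were lower (median -5.68), with Postn, a matrix protein of collagen fibrils, at -9.17 and the small proteoglycan Bgn at -7.78. Serpinh1, the chaperone of collagen folding, differed less, with 619 RPKM on day 6 and 2766 in MEF.

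Between the converted libraries 4 of the 5 partner lists held genes past 4-fold. In Tomato-positive against Tomato-negative NSC, where 2.77% of all genes were higher and 0.881% lower, 8 of 12 fibril partners were higher (median 3.26), with Thbs2 at 5.67, Bgn at 4.70, Postn at 4.30 and the proteoglycan Dcn at 4.03. Of the modification genes 2 of 18 were higher, Fkbp10 at 2.43 and P4ha3 at 2.28, and of the export and crosslinking genes 5 of 14 were higher, led by Loxl1 at 3.47 and Loxl2 at 3.19. None of the 5 receptors that entered passed 4-fold (0 higher and 0 lower), and Ddr1, a collagen receptor kinase, had 110 RPKM in Tomato-positive NSC and 192 in Tomato-negative NSC. Of the basement membrane partners 2 of 13 were higher, Nid1, which links type IV collagen to laminin, at 3.10 and Lama2 at 2.23. In iPSC against ESC, where 4.39% of all genes were lower, 8 of 12 fibril partners were lower (median -4.97), with Dcn at -9.09 and Lum at -8.20, and 3 of 16 modification genes were lower. Dcn had 0.363 RPKM in iPSC and 741 in ESC, against 374 RPKM in MEF.

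The levels along a gene were not equally even in all libraries. The ratio of each exon to its value in MEF was taken for exons with 20 reads or more in both, in genes with 10 such exons or more, and its SD over the exons of a gene was computed on the log2 scale. The median SD was 0.88 on day 6 (13 genes, 0.53 to 1.14), 0.36 in Tomato-positive NSC (23 genes), 0.355 in Tomato-negative NSC (20 genes), 0.43 in brain NSC (6 genes), and 0.33 in iPSC (13 genes) beside 0.705 in ESC (18 genes, 0.42 to 1.23). For Col1a1 the SD was 1.08 on day 6, 0.17 in Tomato-positive NSC, 0.35 in iPSC and 1.18 in ESC. In ESC the Col1a1 exons lay between 17.8 and 873 RPKM, and their log2 ratios to MEF between -8.20 and -3.46. In Tomato-positive NSC, a shallower library, the same ratios lay between -6.64 and -5.77. The gene levels of day 6 and ESC thus average over exons that differ widely, and the reason was not tested.

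**Figure D5:**
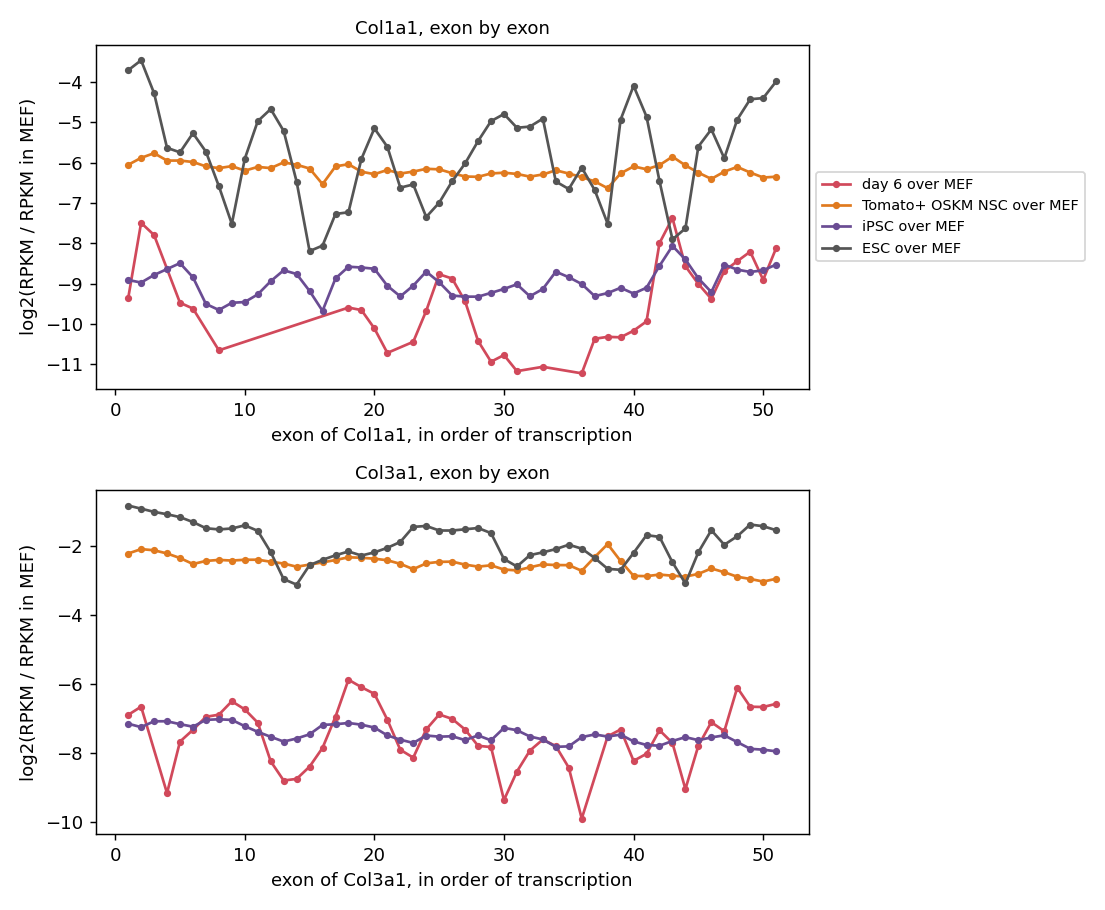
Log2 of exon RPKM over exon RPKM in MEF along Col1a1 (top) and Col3a1 (bottom), for day 6, Tomato-positive NSC, iPSC and ESC, at exons with 20 reads or more in both libraries. The Tomato-positive and iPSC lines are nearly flat, and the day 6 and ESC lines swing by several log2 units, from -8.20 to -3.46 in ESC for Col1a1.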

How the data were processed

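RNA-seq values of 7 libraries, 1 per group, were used. The deposited values are RPKM per Ensembl exon, made by the authors. The submitters' processing notes name TopHat2 2.0.10, Bowtie, CASAVA 1.8.2, bedtools and the mm10 build, without roles. The counting method and strand are not given in the sources used here. Of 279252 exons, 270168 (96.7%) matched GENCODE M21 by exon ID. A gene's level was the exon-length-weighted mean RPKM (Python 3.11.15, pandas 2.3.3, numpy 2.4.6). RPKM times length fell on whole reads for 96.3% to 96.5% of values, within 0.01 read plus 1e-05 of the value, at a depth of 19 to 58 megareads. These gave exact 95% intervals of read ratios and floors of 3 reads, which cover counting error only. In 23 of 23 collagen genes exons of up to 60 bases had higher RPKM than exons of 200 or more, by a median of 3.04-fold. The reason was not tested. If a read was counted in each exon it touched, the intervals are too narrow. Levels of different genes also depend on exon length.

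Collagen exons sharing bases with another gene (5, in Col4a1, Col4a2, Col9a3 and Col10a1) were kept. The pseudocount was 1 RPKM, the floor 2 RPKM and the threshold 4-fold, over 12 comparisons. The rules were run on counts simulated around the deposited levels with counting error only. Spread between libraries and uneven exons were thus not covered. Collagens at 20 RPKM or more in any library are given in full and others by range. Partner genes named have the largest absolute ratios of their list, up to 4 per list and comparison, and markers the highest levels; Serpinh1, Ddr1, Pcolce2, Lama1, Acan, Sox2, Krt14, Itgb4, Trp63, Cnn1 and the exons and starts shown were chosen after their values were seen. The members, lists and comparisons were chosen with earlier results of these data known. Col21a1 was looked for and not analysed here.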

Additional observations from a re-analysis of the deposited data

How the results depend on the processing

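Alternatives were pseudocounts of 0.25 and 4 RPKM, no floor and a floor of 8 RPKM, equal totals, median-of-ratios scaling, the highest exon of each gene, exons of 200 bases or more, and leaving out shared exons. Of 108 recomputed counts of collagen genes past 4-fold, 103 stayed within 1.5 times, and MEF was the highest library for 25 to 31 genes in the 5 settings that could change this. Those that did not were Tomato-negative NSC against day 6 (9 genes, or 5 with a pseudocount of 4), Tomato-negative NSC against brain NSC (12, or 6 with a pseudocount of 4) and day 6 against iPSC (7, or 2 with a pseudocount of 4, 2 with a floor of 8 and 13 with the highest exon). With the highest exon the split of Tomato-negative NSC against day 6 also changed, to 6 higher and 6 lower, against 7 higher and 2 lower with the mean. A larger pseudocount shrinks ratios of low genes and a higher floor lets fewer genes enter, and the cause of the highest-exon count was not tested. Leaving out the floor could not change a count, because genes under 2 RPKM in both libraries stay under 4-fold with 1 RPKM added. Those recomputed counts therefore stayed the same by design. Of 2808 recomputed ratios of the 26 genes that reached 20 RPKM, 1289 moved by more than the distance from the middle to the end of the counting interval. The other 1519 moved by no more than this distance on the log2 scale, and 0 changed sign as called. Many of the 1519 could not move, because the floor does not enter a ratio. Leaving out shared exons could move only genes that have them, and pairs with no read in 1 library had no finite limit. Scaling moved the all-gene median by over 0.1 on the log2 scale in 10 of 12 comparisons and by at most 0.48, as in Tomato-positive NSC against day 6 (0.50 as deposited and 0.02 with median-of-ratios scaling). No paired analysis was possible because each group has 1 library and no result comes from a test. With 1 library per group, no replicate could be left out, and depth limits values under about 3 reads, as in Col9a1 of ESC.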
